A study of Mus musculus with 26 samples.

Results

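Transcripts of 10 genes that serve as markers of astrocytes, the star-shaped support cells of the brain, were followed through 26 RNA-seq libraries of mouse microglia. The genes are Gfap, Aqp4, Slc1a2, Slc1a3, Gja1, Aldoc, S100b, Atp1b2, Glul and Aldh1l1. They were taken by symbol as known markers, with earlier results of these data known, and are 10 of the 52636 genes in the count files. All 10 passed the filter on low counts and were tested among 21371 genes.

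Astrocytes surround synapses and blood vessels. They take up the glutamate that neurons release, turn it into glutamine, move potassium and water, and are joined to each other by gap junctions. Microglia are the resident macrophages of the brain, a separate lineage, so transcripts such as Gfap and Aqp4 are commonly read in microglia preparations as a sign of astrocyte RNA. Glul and Aldoc are enriched in astrocytes but are not exclusive to them.

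The study lowered Tmem106b, the gene of a lysosomal membrane protein, in mice that lack part or all of Grn, which encodes progranulin, a secreted protein delivered to lysosomes. The 7 genotype groups were Tmem106b KO Grn WT (n = 4), Tmem106b HET with Grn KO (n = 3), Grn HET (n = 3) or Grn WT (n = 4), and Tmem106b WT with Grn KO (n = 4), Grn HET (n = 5) or Grn WT (n = 3). The labels name no treatment and give the cell type of all groups as microglia, and neither the age of the mice nor how the cells were isolated is stated there. Replicate numbers follow the order of the samples and only name a library. The dissection was labelled Hemi for 8 libraries and Entire for 18, without explanation, and 14 libraries were labelled female and 12 male. The labels do not say that each library came from its own animal, so the p-values measure only the spread between these libraries, which may be partly technical.

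Total counts were 37562732 to 63710833 per library, with a median of 48757976. Grn averaged 3.23 ± 4.24 CPM (counts scaled to the TMM-adjusted library total, SD, n = 3) in Tmem106b HET Grn KO and 4.84 ± 7.58 CPM (SD, n = 4) in Tmem106b WT Grn KO, and was at least 554 CPM in every library of the other groups. Tmem106b averaged 28.2 ± 5.13 CPM (SD, n = 4) in Tmem106b KO Grn WT, against 77.6 ± 10.1 CPM in the 3 Tmem106b WT Grn WT libraries. The summed level of 12 microglia identity markers was 33827 CPM or more in all but 2 libraries. It was 9792 CPM in Tmem106b KO Grn WT replicate 2 and 12369 CPM in Tmem106b HET Grn KO replicate 3, both Hemi, which had the highest sums of 12 neuron markers, 6745 and 7320 CPM. The sum of 10 oligodendrocyte markers was highest in Tmem106b HET Grn WT replicate 3, at 24976 CPM, and in Tmem106b WT Grn KO replicate 2, at 10685 CPM, again both Hemi. No marker of these 3 lists was at 0 in any library. Calls among the 10 members and the further astrocyte lists that rest on any of these 4 libraries are given with and without it.

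Promoter windows are shown for the 3 members that passed a test between groups and have an entry in the RefSeq promoter table, Slc1a3, Glul and Aldoc. Each window covers 250 bases before and 50 bases after the start in build GRCm38.p6, is written 5′ to 3′ on the strand of the gene, and has in capitals every match on either strand to TTGGC (the core of the site of the NFI factors, which act in astrocyte development), ACAATG (a SOX motif) or TTCNNNGAA (a STAT motif). The motifs do not overlap in these windows.
Slc1a3, chr15:8710758-8711057, minus strand: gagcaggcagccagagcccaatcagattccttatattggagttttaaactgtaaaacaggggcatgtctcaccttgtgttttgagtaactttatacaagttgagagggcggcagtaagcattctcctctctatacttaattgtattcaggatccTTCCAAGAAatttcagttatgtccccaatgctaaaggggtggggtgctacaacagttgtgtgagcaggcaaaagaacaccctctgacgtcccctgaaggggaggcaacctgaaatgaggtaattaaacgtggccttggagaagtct
Glul, chr1:153899679-153899978, plus strand: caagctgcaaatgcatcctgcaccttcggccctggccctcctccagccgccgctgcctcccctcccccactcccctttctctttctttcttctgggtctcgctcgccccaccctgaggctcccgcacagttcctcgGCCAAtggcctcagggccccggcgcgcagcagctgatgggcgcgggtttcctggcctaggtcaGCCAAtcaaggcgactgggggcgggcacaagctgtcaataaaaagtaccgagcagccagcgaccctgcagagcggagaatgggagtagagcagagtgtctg
Aldoc, chr11:78322823-78323122, plus strand: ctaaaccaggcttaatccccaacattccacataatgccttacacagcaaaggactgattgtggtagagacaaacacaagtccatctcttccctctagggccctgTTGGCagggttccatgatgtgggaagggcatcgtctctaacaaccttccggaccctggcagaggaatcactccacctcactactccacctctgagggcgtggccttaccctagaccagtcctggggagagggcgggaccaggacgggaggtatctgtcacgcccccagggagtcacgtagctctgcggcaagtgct
The Slc1a3 window holds 1 STAT motif, the Glul window 2 NFI cores, both on the reverse strand and so read as GCCAA, and the Aldoc window 1 NFI core. Of all 32851 windows in the table, 46.7% held the NFI core, 12.6% the SOX motif and 8.3% the STAT motif. The NFI core is thus common and the STAT motif less so, and all matches are given as a description, without a test. In total 8 of the 10 members matched the table, all but Aqp4 and Atp1b2. Of the other 5 windows, S100b held 4 NFI cores, Slc1a2 held 1, Gfap held 1 STAT motif, and Gja1 and Aldh1l1 held none of the 3. The windows of Gfap (chr11:102897151-102897450), Slc1a2 (chr2:102706188-102706487) and Aldh1l1 (chr6:90550543-90550842) lie inside the gene spans given below, away from their 5′ ends. The SOX motif was in none of the 8 windows.

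Levels of different genes are compared here per length, with the RPKM that the authors deposited. Over the 26 libraries the median RPKM was highest for Aldoc (45.5), Glul (41.2) and Slc1a3 (39.8). Gja1 (15.1) and Atp1b2 (15.0) came next, then S100b (6.03), Aqp4 (2.60), Aldh1l1 (2.51), Gfap (1.75) and Slc1a2 (1.31). Slc1a3 lay above Gja1 in 26 of 26 libraries, Atp1b2 above S100b in 24 and S100b above Aqp4 in 24. Within the top trio the order was not stable: Aldoc lay above Glul in 15 of 26 libraries and Glul above Slc1a3 in 16. Gja1 lay above Atp1b2 in 15, Aqp4 above Aldh1l1 in 17, Aldh1l1 above Gfap in 17 and Gfap above Slc1a2 in 16. The intermediate filament gene Gfap and the main glutamate transporter gene Slc1a2, both widely used to label astrocytes, were thus the lowest of the 10 at the median RPKM. By RPKM, Gfap was the lowest member in 9 libraries and Slc1a2 in 14. The place of Slc1a2 depends on its exonic width of 12092 bases, against 4072 for Gfap. By CPM the Slc1a2 median of 20.8 lay above those of Aqp4 (16.0), Aldh1l1 (12.5), S100b (10.9) and Gfap (8.40).

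**Figure D1:**
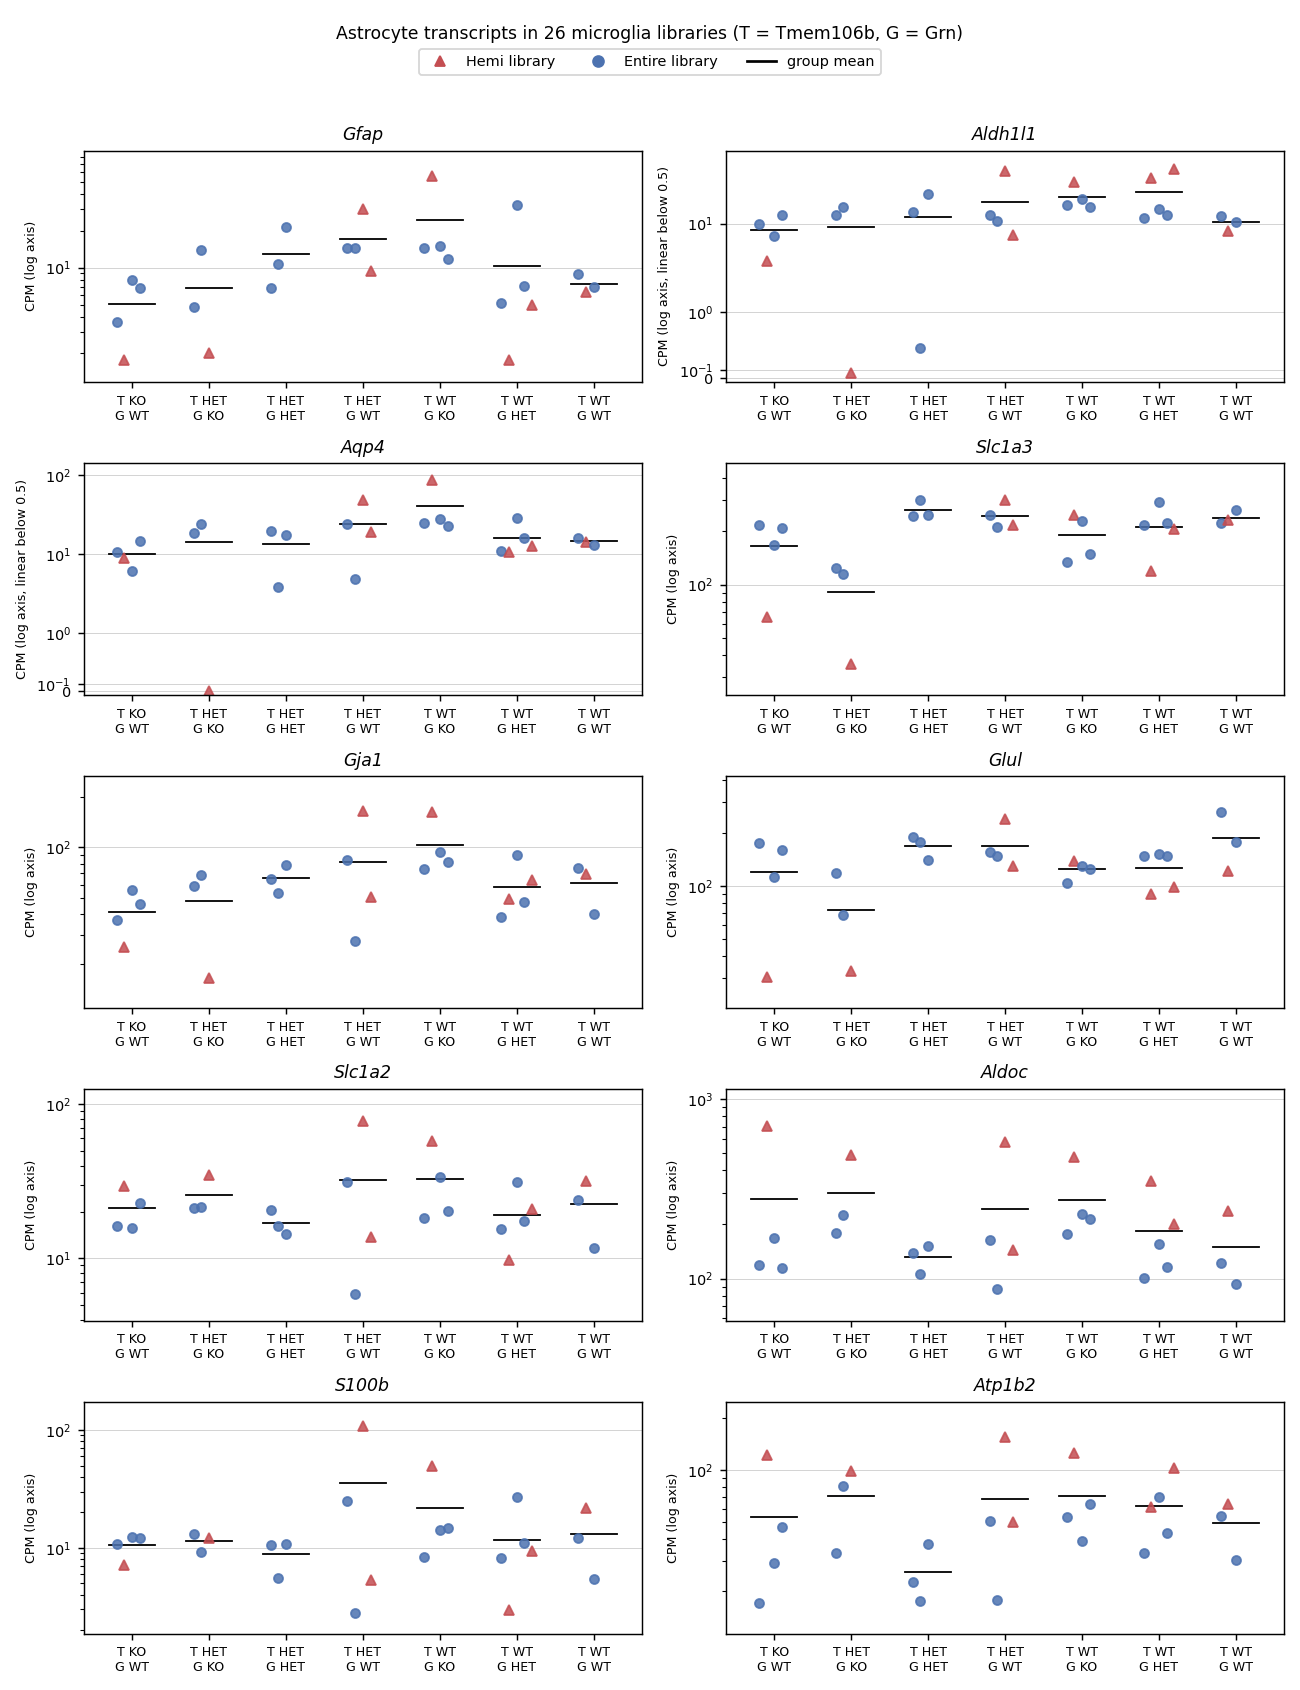
CPM (TMM-scaled, log axes, linear near 0 for Aqp4 and Aldh1l1) of each of the 10 members in every library, by genotype group, with Hemi libraries as triangles, Entire libraries as circles and the group mean as a bar. For Aldoc and for Atp1b2 the highest library is a triangle in each of the 6 groups that hold one. Slc1a3 and Glul are lowest in the Hemi libraries of Tmem106b KO Grn WT and Tmem106b HET Grn KO.

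The first role is the clearance and recycling of glutamate. Slc1a3 (chr15:8634124-8710764, minus strand, GRCm38) encodes the glutamate transporter GLAST. Its level was 216, 65.7, 167 and 209 CPM in Tmem106b KO Grn WT, 124, 115 and 35.8 CPM in Tmem106b HET Grn KO, and 242, 298 and 247 CPM in Tmem106b HET Grn HET. It was 246, 212, 301 and 217 CPM in Tmem106b HET Grn WT, 134, 246, 229 and 149 CPM in Tmem106b WT Grn KO, 217, 119, 290, 222 and 206 CPM in Tmem106b WT Grn HET, and 222, 231 and 263 CPM in Tmem106b WT Grn WT. Every Tmem106b HET Grn KO library lay below every Tmem106b HET library of the other 2 Grn genotypes. The annotation places another gene, Gm37310, on the same strand within Slc1a3, so some reads may be shared.

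Glul (chr1:153899944-153909723, plus strand) encodes glutamine synthetase, which turns glutamate into glutamine. It stood at 177, 30.5, 113 and 159 CPM in Tmem106b KO Grn WT, 119, 68.5 and 32.8 CPM in Tmem106b HET Grn KO, and 189, 179 and 141 CPM in Tmem106b HET Grn HET. It stood at 157, 147, 240 and 130 CPM in Tmem106b HET Grn WT, 104, 139, 130 and 124 CPM in Tmem106b WT Grn KO, 148, 89.5, 151, 148 and 99.0 CPM in Tmem106b WT Grn HET, and 262, 121 and 177 CPM in Tmem106b WT Grn WT. The lowest libraries were the same pair of Hemi libraries that were lowest in Slc1a3. The pseudogene Glns-ps1, a copy of Glul, had a median of 9.95 CPM and followed Glul across the libraries (Spearman's rho 0.97, n = 26), and since the handling of reads shared between copies was not given, the levels of the pair are uncertain to that extent. Glul also overlaps Teddm2 on the other strand and the microRNA gene Mir8114.

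Slc1a2 (chr2:102658659-102790784, plus strand) encodes GLT-1, the other main astrocyte glutamate transporter. It ranged from 5.90 to 78.0 CPM with a median of 20.8 CPM, and its highest libraries were Tmem106b HET Grn WT replicate 3 at 78.0 CPM and Tmem106b WT Grn KO replicate 2 at 58.0 CPM. The third highest was Tmem106b HET Grn KO replicate 3, at 34.9 CPM, the library where Slc1a3 was lowest. An antisense gene, Gm13872, overlaps it, and the strand setting of the counting was not given.

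The next role is structure, coupling and water flow. Gfap (chr11:102887336-102900912, minus strand), the intermediate filament protein that rises in reactive astrocytes, was at 3.61, 1.75, 7.95 and 6.81 CPM in Tmem106b KO Grn WT, 4.76, 13.8 and 2.02 CPM in Tmem106b HET Grn KO, and 6.86, 10.8 and 21.3 CPM in Tmem106b HET Grn HET. It was at 14.4, 14.5, 30.1 and 9.46 CPM in Tmem106b HET Grn WT, 14.3, 56.2, 14.9 and 11.7 CPM in Tmem106b WT Grn KO, 5.17, 1.76, 32.4, 7.15 and 4.97 CPM in Tmem106b WT Grn HET, and 8.84, 6.30 and 6.96 CPM in Tmem106b WT Grn WT. Every library of Tmem106b WT Grn KO and of Tmem106b HET Grn WT lay above every library of Tmem106b KO Grn WT and Tmem106b WT Grn WT. A single library stood above the rest of its group in Tmem106b WT Grn KO (replicate 2) and in Tmem106b WT Grn HET (replicate 3). The lincRNA gene Gm26668 overlaps Gfap on the other strand.

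Aqp4 encodes the water channel of astrocyte endfeet. It ranged from no count in Tmem106b HET Grn KO replicate 3, where 3 counts would be 0.0514 CPM, to 88.3 CPM in Tmem106b WT Grn KO replicate 2, with a median of 16.0 CPM. The other Tmem106b HET Grn KO libraries had 18.7 and 24.0 CPM, against 23.9, 4.79, 48.5 and 19.1 CPM in Tmem106b HET Grn WT. An antisense gene, AC133525.2, overlaps Aqp4. Gja1 (chr10:56377330-56402513, plus strand), which encodes connexin 43, the gap junction protein of astrocytes, ranged from 16.5 CPM in that same replicate 3 to 166 CPM in Tmem106b HET Grn WT replicate 3, with a median of 61.2 CPM. No annotated gene overlaps Gja1.

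Metabolism is the role of Aldoc and Aldh1l1. Aldoc (chr11:78322968-78327781, plus strand, no overlapping gene) encodes aldolase C, the glycolytic aldolase of the brain. It was at 120, 707, 167 and 115 CPM in Tmem106b KO Grn WT, 179, 226 and 488 CPM in Tmem106b HET Grn KO, and 139, 106 and 152 CPM in Tmem106b HET Grn HET. It was at 165, 87.3, 578 and 145 CPM in Tmem106b HET Grn WT, 177, 473, 227 and 214 CPM in Tmem106b WT Grn KO, 101, 350, 156, 116 and 202 CPM in Tmem106b WT Grn HET, and 122, 236 and 93.7 CPM in Tmem106b WT Grn WT. In each of the 6 groups that hold a Hemi library, the highest value of Aldoc was Hemi, as was that of Atp1b2. For Slc1a2 this held in 5 of the 6 groups, and for the other members in 2 or 3. Aldh1l1 (chr6:90486427-90600203, plus strand), an enzyme of folate metabolism used as a pan-astrocyte marker, had a median of 12.5 CPM and reached 41.8 CPM in Tmem106b WT Grn HET replicate 5. That library also had the highest sum of 8 choroid plexus markers, 25628 CPM, whose part in the value was not tested. It was nearly missing from 2 libraries, with 4 counts (0.0686 CPM) in Tmem106b HET Grn KO replicate 3 and 20 counts (0.381 CPM) in Tmem106b HET Grn HET replicate 2. Aldh1l1 overlaps 3 other annotated genes, Gm45901 and Gm44236 on its own strand and the antisense Gm15756.

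S100b and Atp1b2 complete the set. S100b (chr10:76253853-76261159, plus strand), a calcium-binding protein that astrocytes and some oligodendrocytes make, ranged from 2.81 to 108 CPM with a median of 10.9 CPM. Its highest libraries were Tmem106b HET Grn WT replicate 3 at 108 CPM and Tmem106b WT Grn KO replicate 2 at 49.2 CPM, the same pair with the highest oligodendrocyte marker sums. S100b overlaps Dip2a on the other strand. Atp1b2 (chr11:69599736-69605942, minus strand, no overlapping gene) encodes the beta-2 subunit of the sodium pump. It ranged from 17.0 to 155 CPM with a median of 50.5 CPM, and the highest library was again Tmem106b HET Grn WT replicate 3.

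The comparison of Grn KO with Grn WT on the Tmem106b HET background asks what loss of progranulin does when Tmem106b is lowered. Slc1a3 and Glul fell, and the other 8 members did not pass, with log2 fold changes from −1.61 to 0.60. Slc1a3 averaged 91.3 ± 48.3 CPM in Grn KO (SD, n = 3) and 244 ± 40.9 CPM in Grn WT (SD, n = 4), a log2 fold change of −1.67 (SE 0.38, edgeR adjusted p = 0.00794). Glul averaged 73.5 ± 43.3 CPM in Grn KO and 169 ± 49.0 CPM in Grn WT, a log2 fold change of −1.50 (SE 0.42, edgeR adjusted p = 0.0228). In both genes the groups did not overlap. The calls are 2 lower of 10, where 6.05% of all genes tested were called lower, 8.42% higher and 14.5% in either direction, 29.8% were at an unadjusted p under 0.05 as were these 2 members, and 19.2% of all genes had groups without overlap. Fewer astrocytes, less RNA of these genes per cell and less of it from other cells, microglia included, cannot be told apart in bulk libraries. Over the 26 libraries Glul ran with the microglia identity sum (Spearman's rho 0.76), and Slc1a3 less closely (0.49). With the oligodendrocyte sum Slc1a3 had 0.58 and Glul 0.50. Which cells the transcripts came from was not tested.

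Without Grn KO replicate 3, the Hemi library with few microglia markers, Slc1a3 had a log2 fold change of −1.23 (edgeR adjusted p = 0.0763) and Glul −1.15 (edgeR adjusted p = 0.168). Without Grn KO replicate 2, Glul did not pass (edgeR adjusted p = 0.0833), nor without Grn WT replicate 3, the library of highest oligodendrocyte sum (edgeR adjusted p = 0.0527), while Slc1a3 passed in both (edgeR adjusted p = 0.0245 and 0.0174). Among the 18 Entire libraries alone, Slc1a3 still passed at −0.98 (edgeR adjusted p = 0.0174), and Glul did not at −0.73 (edgeR adjusted p = 0.085). In Entire libraries Slc1a3 stood at 124 and 115 CPM in Grn KO, against 246 and 212 CPM in Grn WT. The direction was thus the same in these Entire libraries, with a smaller size. In the 2 groups compared, every Entire library was female and every Hemi library male. Grn KO replicate 3 was thus also the only male library of its group. Within these groups sex and dissection cannot be told apart. The calls also rested on the fit: without covariates Slc1a3 had an edgeR adjusted p of 0.0717 and Glul 0.149. With only the 2 groups in the fit, and again no covariates, the edgeR adjusted p was 0.224 and 0.27.

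Other marker lists were read in this comparison too, where 8.42% of all genes were called higher, 6.05% lower and 14.5% in either direction. Neuron markers were higher for 10 of 12 genes, with sums of 721 to 7320 CPM in Grn KO and 86.7 to 1405 CPM in Grn WT. Microglia identity markers were lower for 7 of 12, with sums of 12369 to 61652 CPM in Grn KO and 43883 to 74144 CPM in Grn WT. Oligodendrocyte markers passed for 0 of 10, with sums of 599 to 2996 CPM in Grn KO and 586 to 24976 CPM in Grn WT. Of these 10, 3 were at an unadjusted edgeR p under 0.05, a level that 29.8% of all genes reached. With the neuron and oligodendrocyte sums as covariates, Slc1a3 stood at −1.12 (edgeR adjusted p = 0.424) and Glul at −0.81 (edgeR adjusted p = 0.572). In that fit edgeR called 9 of all genes, at 0.0421%.

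On the Tmem106b WT background, the same question of Grn KO against Grn WT gave no call among the members. With edgeR, a call was made for 0 of 10, where 0.576% of all genes were called (0.426% higher and 0.15% lower), and 1 of 10 was at an unadjusted p under 0.05, a level that 12.4% of all genes reached. DESeq2 and limma-voom also called 0. The log2 fold change was above 0 for 8 of 10 members with a median of 0.72, against 0.10 over all genes tested, and below 0 for Slc1a3 (−0.45) and Glul (−0.60). Aldoc averaged 273 ± 135 CPM in Grn KO (SD, n = 4) and 151 ± 75.5 CPM in Grn WT (SD, n = 3), with a log2 fold change of 0.99 (SE 0.39, edgeR adjusted p = 0.295). Gfap averaged 24.3 ± 21.3 CPM in Grn KO and 7.37 ± 1.32 CPM in Grn WT, with a log2 fold change of 1.75 (SE 0.94, edgeR adjusted p = 0.465). Gfap, Aqp4 and Aldh1l1 did not overlap between the groups, 3 of 10 members against 16.2% of all genes.

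The size of these differences rested in part on Tmem106b WT Grn KO replicate 2, the Hemi library with an oligodendrocyte sum of 10685 CPM. Without it the log2 fold change of Gfap was 0.45 (edgeR adjusted p = 0.843), and across all alternatives it ran from 0.45 to 2.19 with an adjusted p of 0.193 to 0.843. Neuron markers passed for 0 of 12, although 11 were at an unadjusted edgeR p under 0.05, a level that 12.4% of all genes reached. Their sums were 684 to 1095 CPM in Grn KO and 127 to 1407 CPM in Grn WT. Microglia identity markers were lower for 1 of 12, where 0.15% of all genes were called lower. Their sums were 38929 to 59127 CPM in Grn KO and 51934 to 79904 CPM in Grn WT. Oligodendrocyte sums were 2056 to 10685 CPM in Grn KO and 1691 to 8666 CPM in Grn WT. With the neuron and oligodendrocyte sums as covariates, Aldoc stood at 0.80 (edgeR adjusted p = 0.647) and Gfap at 2.02 (edgeR adjusted p = 0.477).

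**Figure D2:**
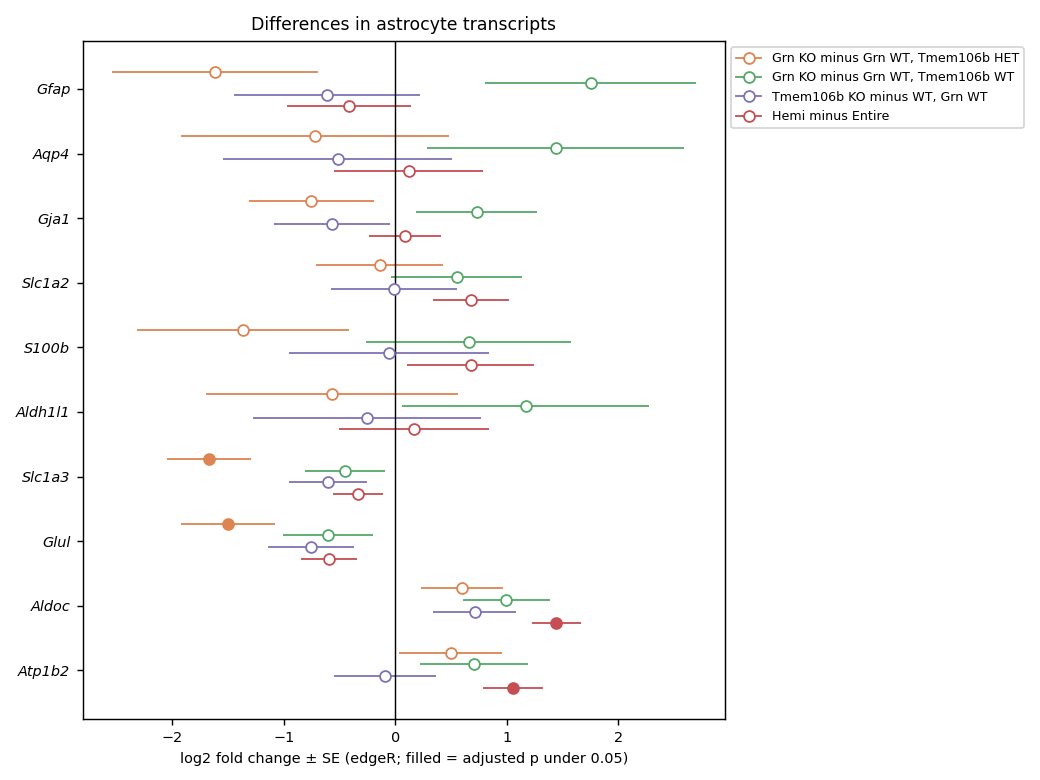
Log2 fold change with its SE (edgeR) of each member in 4 comparisons, with filled points where the adjusted p was under 0.05. Slc1a3 and Glul are filled in Grn KO against Grn WT on Tmem106b HET (−1.67 and −1.50), Aldoc and Atp1b2 in Hemi against Entire (1.44 and 1.06), and no other point is filled.

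The test of whether the Grn KO difference is unlike on the 2 Tmem106b backgrounds called 0 of 10 members, and 0% of all genes. All 10 interaction estimates were below 0, with a median of −1.35 against −0.13 over all genes. The smallest p belonged to Gfap, at −3.36 (SE 1.30, edgeR adjusted p = 0.872), and to Slc1a3, at −1.22 (SE 0.51, edgeR adjusted p = 0.872). These 2 were the members at an unadjusted p under 0.05, which 4.29% of all genes reached. DESeq2 and limma-voom called 0 members. A difference between the backgrounds was therefore not shown for any member, although Slc1a3 and Glul passed on Tmem106b HET and not on Tmem106b WT.

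Grn KO libraries of both backgrounds were also set against each other, Tmem106b HET Grn KO against Tmem106b WT Grn KO. With edgeR, a call was made for 0 of 10 members and 0% of all genes, with 3 members at an unadjusted p under 0.05, against 3.79% of all genes. Slc1a3 averaged 91.3 ± 48.3 CPM in Tmem106b HET Grn KO (SD, n = 3) and 189 ± 56.1 CPM in Tmem106b WT Grn KO (SD, n = 4), a log2 fold change of −1.12 (SE 0.36, edgeR adjusted p = 0.918). Gfap averaged 6.86 ± 6.17 CPM in Tmem106b HET Grn KO and 24.3 ± 21.3 CPM in Tmem106b WT Grn KO, a log2 fold change of −2.03 (SE 0.91, edgeR adjusted p = 0.918). The Gfap value ran from −2.91 without Tmem106b HET Grn KO replicate 2 to −0.77 without Tmem106b WT Grn KO replicate 2, and was −0.36 among Entire libraries. DESeq2 and limma-voom called 0 members. Slc1a3, Gja1 and Aldh1l1 did not overlap, 3 of 10 members, where 6.13% of all genes did not.

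Loss of 1 Grn copy gave no call among the members on either background. For Grn HET against Grn WT on Tmem106b HET, edgeR called 0 of 10 members and 0% of all genes, with 0 members at an unadjusted p under 0.05, where 5.54% of all genes were. The members of smallest p were Atp1b2, at 25.8 ± 10.4 CPM in Grn HET (SD, n = 3) and 68.5 ± 59.8 CPM in Grn WT (SD, n = 4), a log2 fold change of −0.78 (SE 0.49, edgeR adjusted p = 0.856), and S100b, at −1.45 (SE 0.99, edgeR adjusted p = 0.857). The S100b estimate turned to 0.11 without Tmem106b HET Grn WT replicate 3. On Tmem106b WT, edgeR called 0 of 10 members and 0% of all genes, with 0 members at an unadjusted p under 0.05 against 3.43% of all genes. Glul stood at 127 ± 30.3 CPM in Grn HET (SD, n = 5) and 187 ± 70.8 CPM in Grn WT (SD, n = 3), a log2 fold change of −0.56 (SE 0.38, edgeR adjusted p = 1), and Aldh1l1 at a log2 fold change of 1.24 (SE 1.08, edgeR adjusted p = 1). No member was without overlap in either comparison, where 7.08% of all genes were on Tmem106b HET and 2.03% on Tmem106b WT, and DESeq2 and limma-voom called 0 members in both. The test of whether the Grn HET difference is unlike on the 2 backgrounds called 0 of 10 members and 0% of all genes, with 0 members at an unadjusted p under 0.05 against 5.6% of all genes, and DESeq2 and limma-voom called 0. Atp1b2 had −1.23 (SE 0.70, edgeR adjusted p = 0.936) and Aldh1l1 −1.87 (SE 1.70, edgeR adjusted p = 0.998).

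Loss of Tmem106b with Grn intact gave no call among the members either. With edgeR, a call was made for 0 of 10 in Tmem106b KO against Tmem106b WT, with 0.00468% of all genes called and 0 members at an unadjusted p under 0.05, where 11% of all genes were. DESeq2 and limma-voom called 0 members, with 1 member each at an unadjusted p under 0.05. The log2 fold change was below 0 for 9 of 10 members, with a median of −0.39 against 0.07 over all genes. Glul averaged 120 ± 65.3 CPM in Tmem106b KO (SD, n = 4) and 187 ± 70.8 CPM in Tmem106b WT (SD, n = 3), a log2 fold change of −0.75 (SE 0.38, edgeR adjusted p = 0.472). Aldoc averaged 277 ± 287 CPM in Tmem106b KO and 151 ± 75.5 CPM in Tmem106b WT, log2 fold change 0.71 (SE 0.37, edgeR adjusted p = 0.479), with 707 CPM in the Hemi library and 115 to 167 CPM in the 3 Entire libraries of Tmem106b KO. Slc1a3 alone did not overlap between the groups, 1 of 10 members against 4.6% of all genes.

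Lowering Tmem106b by 1 copy was tested at each Grn genotype. With Grn WT, edgeR called 0 of 10 members and 0% of all genes, with 0 members at an unadjusted p under 0.05 against 3.49% of all genes. Gfap averaged 17.1 ± 8.98 CPM in Tmem106b HET (SD, n = 4) and 7.37 ± 1.32 CPM in Tmem106b WT (SD, n = 3), a log2 fold change of 1.34 (SE 0.88, edgeR adjusted p = 1), and alone did not overlap, 1 of 10 members against 4.01% of all genes. S100b had a log2 fold change of 1.26 (SE 0.91, edgeR adjusted p = 1), which turned to −0.38 without Tmem106b HET Grn WT replicate 3. With Grn HET, edgeR called 0 of 10 members and 0% of all genes, with 1 member at an unadjusted p under 0.05 against 6.79% of all genes. That member was Atp1b2, at 25.8 ± 10.4 CPM in Tmem106b HET (SD, n = 3) and 62.2 ± 27.1 CPM in Tmem106b WT (SD, n = 5), a log2 fold change of −1.05 (SE 0.49, edgeR adjusted p = 0.726). Aldh1l1 had the next smallest p, at −1.11 (SE 1.20, edgeR adjusted p = 0.941). That value ran from −1.86 without Tmem106b HET Grn HET replicate 3 to −0.29 without Tmem106b HET Grn HET replicate 2, the library with 20 counts. DESeq2 and limma-voom called 0 members in both.

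The dissection label was a term of the same fit, so its test compares Hemi with Entire libraries within genotype. Aldoc and Atp1b2 were higher in Hemi, 2 of 10 members, where 11.7% of all genes were called higher and 20.7% were called in either direction. Aldoc ran from 145 CPM through a median of 411 CPM to 707 CPM in the 8 Hemi libraries, against 87.3, 146 and 227 CPM for the lowest, median and highest of 18 Entire libraries. Its log2 fold change was 1.44 (SE 0.22, edgeR adjusted p = 0.000488). Atp1b2 ran from 50.2 through 101 to 155 CPM in Hemi libraries and from 17.0 through 38.3 to 81.3 CPM in Entire libraries, with a log2 fold change of 1.06 (SE 0.27, edgeR adjusted p = 0.00999). Both genes overlapped between the dissections.

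The remaining 8 members did not pass, and they did not all lean the same way. Glul ran from 30.5 through 110 to 240 CPM in Hemi libraries and from 68.5 through 148 to 262 CPM in Entire libraries, with a log2 fold change of −0.60 (SE 0.25, edgeR adjusted p = 0.103). Slc1a2 had a log2 fold change of 0.68 (SE 0.34, edgeR adjusted p = 0.174). The spread of the Hemi libraries was wide: Gfap ran from 1.75 to 56.2 CPM in Hemi and from 3.61 to 32.4 CPM in Entire libraries, and S100b from 2.97 to 108 CPM in Hemi and from 2.81 to 26.8 CPM in Entire libraries. Over all 10 members, the sum ran from 647 to 1744 CPM in Hemi and from 531 to 894 CPM in Entire libraries.

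Other marker lists were read between the dissections too, where 11.7% of all genes were called higher and 9.03% lower. Neuron markers were higher in Hemi for 11 of 12 genes, with sums of 684 to 7320 CPM in Hemi and 71.3 to 2521 CPM in Entire libraries. Microglia identity markers were lower for 11 of 12, with sums of 9792 to 57740 CPM in Hemi and 33827 to 79904 CPM in Entire libraries. Oligodendrocyte markers passed for 0 of 10, with 0 at an unadjusted edgeR p under 0.05, a level that 33.1% of all genes reached. With neuron and oligodendrocyte sums as covariates, Aldoc stood at 0.92 and Atp1b2 at 0.47, both at an edgeR adjusted p of 1, and 0% of all genes were called. Without the 2 libraries of lowest microglia markers, Aldoc had 1.26 (edgeR adjusted p = 0.01) and Atp1b2 0.98 (edgeR adjusted p = 0.06).

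The members did not vary as 1 block across libraries. Spearman's rho over the 26 libraries, which differ in depth, dissection and genotype and are given here as a description, was 0.84 between Aqp4 and Gja1, 0.73 between Gfap and Gja1, 0.77 between Slc1a2 and S100b, 0.77 between Slc1a3 and Glul and 0.78 between Aldoc and Atp1b2. Between Glul and Aldoc it was −0.62, and between Glul and Atp1b2 −0.41. In the 18 Entire libraries alone, Aqp4 and Gja1 had 0.83, Slc1a3 and Glul 0.66, Aldoc and Atp1b2 0.55, and Glul and Aldoc −0.64. Aldoc then also ran with Aqp4 (0.75) and Gja1 (0.76), where all 26 libraries gave 0.28 and 0.35.

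**Figure D3:**
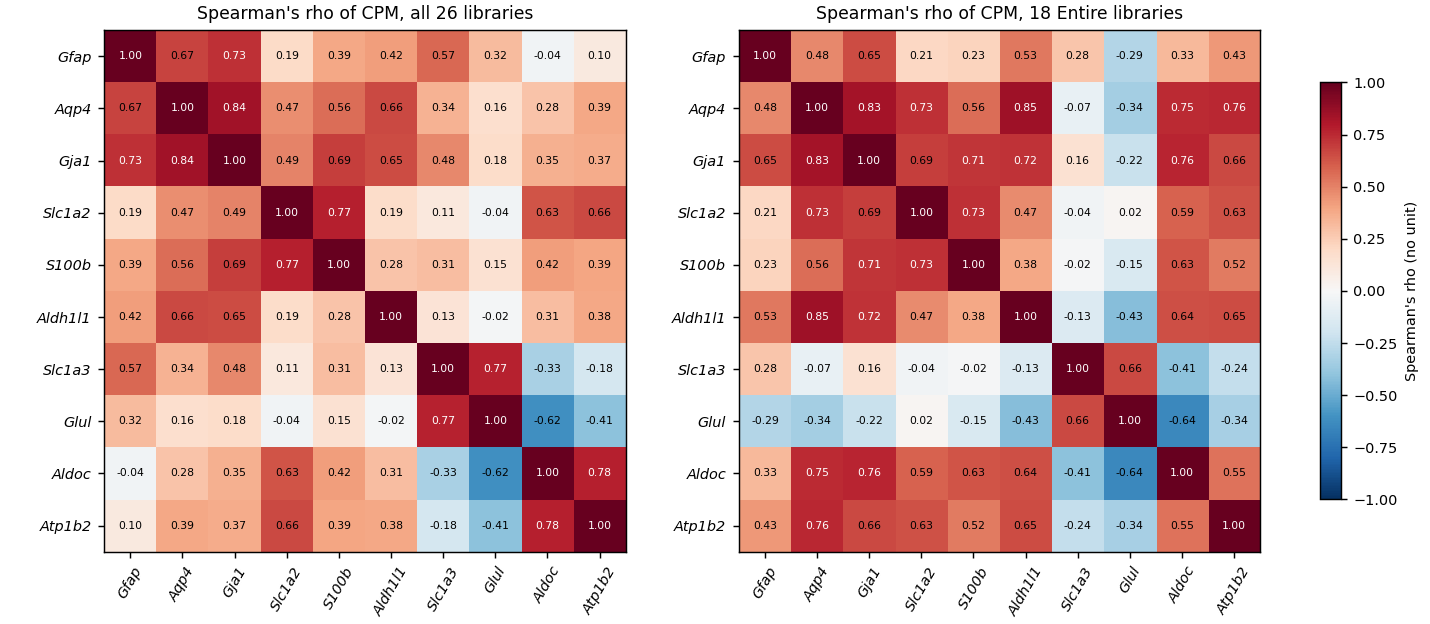
Spearman's rho of CPM (no unit) between each pair of members, over all 26 libraries on the left and the 18 Entire libraries on the right. Slc1a3 and Glul form a pair (0.77 and 0.66), and Glul runs against Aldoc in both panels (−0.62 and −0.64).

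Some libraries stood at an end of the range for many members. Tmem106b HET Grn WT replicate 3 was among the 3 highest libraries for 10 of 10 members, with a member sum of 1744 CPM and an oligodendrocyte sum of 24976 CPM. Tmem106b WT Grn KO replicate 2 was among the 3 highest for 6 members, with a member sum of 1429 CPM. Tmem106b HET Grn KO replicate 3 was among the 3 highest for 2 members, Aldoc and Slc1a2, and among the 3 lowest for 6, Gfap, Aqp4, Gja1, Slc1a3, Glul and Aldh1l1. Tmem106b KO Grn WT replicate 2 was among the 3 highest for Aldoc and Atp1b2 and among the 3 lowest for 5 members. Tmem106b HET Grn WT replicate 2, an Entire library, was also among the 3 lowest for 6, Aqp4, Slc1a2, Gja1, Aldoc, S100b and Atp1b2. In Tmem106b KO Grn WT replicate 2, Aldoc alone made 70.6% of the member sum, where the median share of Aldoc over the libraries was 24.4%. A sum over the members therefore stood for unlike mixtures in different libraries.

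Against markers of other cells, the members split along similar lines. Glul ran with the sum of microglia identity markers (rho 0.76 over 26 libraries, 0.80 over 18 Entire) and ran against the neuron markers (−0.81 and −0.73). Slc1a3 did so to a lesser degree, with 0.49 and 0.50 for microglia and −0.66 and −0.69 for neuron markers. With the oligodendrocyte markers Slc1a3 had 0.58 and 0.28, and Glul 0.50 and 0.35. Aldoc had −0.86 and −0.74 with the microglia markers, and 0.71 and 0.55 with the neuron markers. Atp1b2 had −0.74 and −0.48 with microglia, and 0.55 and 0.26 with neuron markers. Aqp4 had −0.07 and −0.41 with microglia and 0.64 and 0.46 with oligodendrocyte markers, and Gja1 had 0.68 and 0.45 with oligodendrocyte markers. Of the further astrocyte lists, described below, the metabolism and secreted protein sum had 0.92 and 0.89 with Aldoc. That sum had −0.50 and −0.50 with Glul, and −0.26 and −0.37 with Slc1a3. The transport and coupling sum had 0.84 and 0.83 with Gja1, 0.48 and 0.27 with Slc1a3, and 0.26 and 0.08 with Glul. Not every pair of member and list is printed. CPM are shares of 1 total, so the level of a dominant cell type enters every such value.

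**Figure D4:**
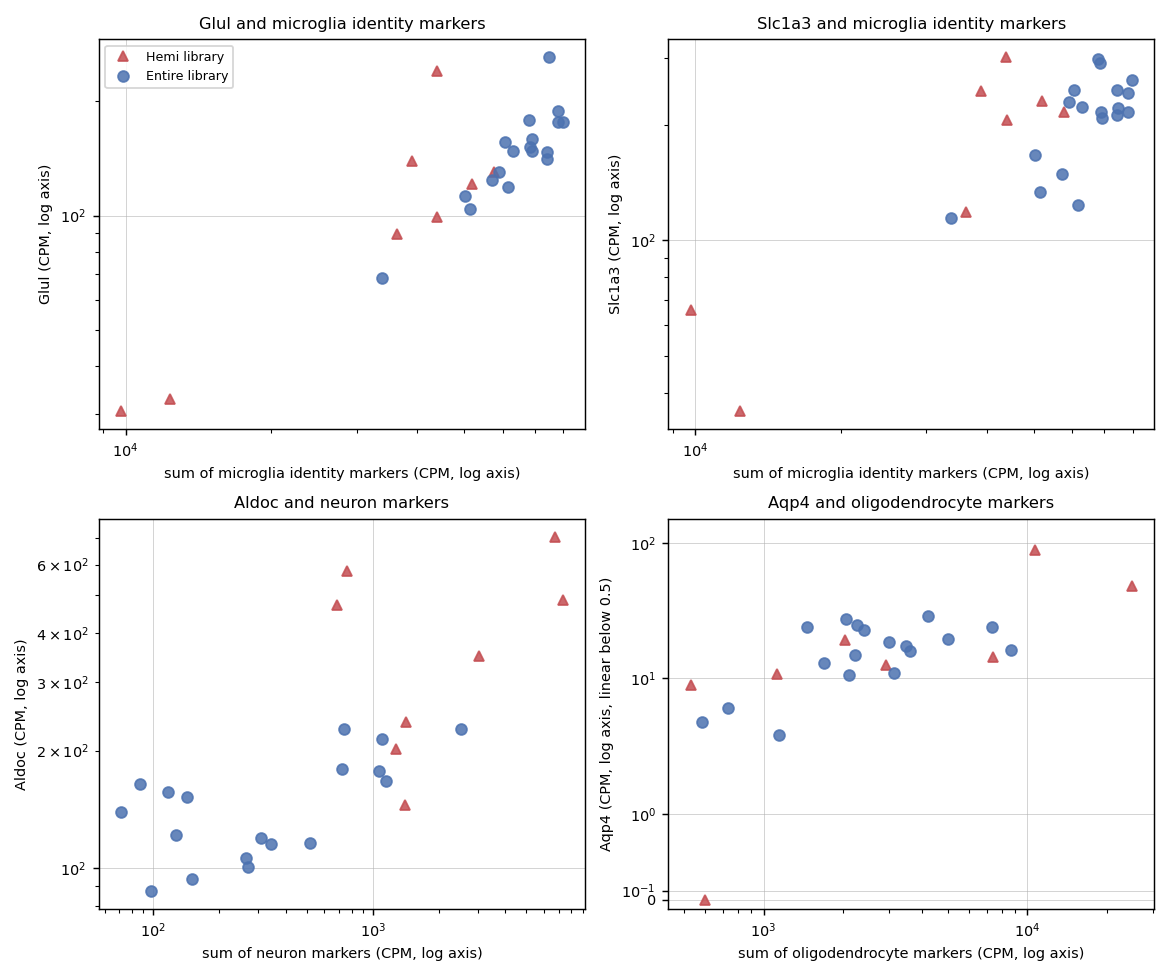
CPM of 4 members (vertical, log axis, linear near 0 for Aqp4) against the summed CPM of a marker list (horizontal, log axis) in each of the 26 libraries, Hemi as triangles and Entire as circles. Glul runs with the microglia identity markers, and Slc1a3 less closely (rho 0.76 and 0.49), Aldoc runs with the neuron markers (0.71), and the highest Aqp4 values sit in the Hemi libraries of highest oligodendrocyte sum.

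The search covered 11328 genes tested with a mean of at least 5 CPM, and the members themselves were not named. The genes whose pattern was most like each member over the 26 libraries were ranked by Spearman's rho. For Aqp4 they were led by Acsbg1 (0.90) and Gpr37l1 (0.82), and for Gja1 by Acsbg1 (0.89), Gpr37l1 (0.86) and Ntsr2 (0.86), all 3 on the astrocyte lists. For Aldoc, Cpe (0.97), Prnp (0.93) and Nnat (0.93) came first, and for Atp1b2, Ttyh1 (0.91) and Magi2 (0.90). For Slc1a2 they were Cttnbp2 (0.82), Arc (0.81) and Bcan (0.81), and for Aldh1l1, Ednrb (0.88) and Slc6a11 (0.78). Glul was followed after its pseudogene by Bin1 (0.92) and Chn2 (0.92), and Slc1a3 by Mboat1 (0.84) and Sox4 (0.83). For Gfap, Slk (0.73) and Plekhh2 (0.72) led, for S100b, Igsf11 (0.78) and Serpinb1a (0.77), and for the sum of all members, Ttyh1 (0.78) and Dbndd2 (0.77). Outside the members, genes of an astrocyte list made up 3 of the 5 nearest genes for Gja1 and 2 for Aqp4. The count was 1 each for Slc1a2, Aldoc, Atp1b2 and Aldh1l1, and 0 for Gfap, Slc1a3, Glul and S100b. These counts leave out near members: Gfap had 0.73 with Gja1, and S100b had 0.77 with Slc1a2, as high as genes named here. Slc1a3 and Glul had 0.77 with each other, below the 5 genes nearest to each. The share of list genes among all 11328 was not worked out.

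Further astrocyte genes were read from 4 lists. The counts stand beside 14.5% of all genes called in Grn KO against Grn WT on Tmem106b HET, 8.42% higher and 6.05% lower. In Grn KO against Grn WT on Tmem106b HET, 0 of 12 transport and coupling genes passed in edgeR, 1 being at an unadjusted p under 0.05, with a median log2 fold change of −0.96 against −0.02 over all genes. Of 12 lineage factors and receptors 1 passed, Nfia, a transcription factor of glial development, lower at 7.93 ± 5.42 CPM in Grn KO (SD, n = 3) and 22.1 ± 6.78 CPM in Grn WT (SD, n = 4), a log2 fold change of −1.73 (edgeR adjusted p = 0.0162). Of 16 metabolism and secreted protein genes 2 passed, both higher, the metallothionein Mt3 (2.10, edgeR adjusted p = 0.00921) and the carboxypeptidase Cpe (1.44, edgeR adjusted p = 0.0355), which are also expressed by neurons. Of 20 reactive astrocyte genes 19 were tested and 5 passed. The intermediate filament gene Vim (1.94), the hyaluronan receptor Cd44 (1.53) and the adhesion gene Amigo2 (4.03) were higher, and Ggta1 (−1.72), a galactosyltransferase, and Fkbp5 (−1.39), a glucocorticoid-induced chaperone, were lower, all at an edgeR adjusted p of 0.0287 or less. Gfap, the classic member of that response, did not pass and stood at −1.61 (edgeR adjusted p = 0.252). Of the 8 calls in these lists, 5 passed without Tmem106b HET Grn KO replicate 3, where Nfia, Cpe and Fkbp5 did not, and 4 passed without Tmem106b HET Grn KO replicate 2, where Nfia, Mt3, Cpe and Cd44 did not. Without Tmem106b HET Grn WT replicate 3 all 8 passed, and Vim, Amigo2 and Ggta1 passed whichever single library of the 2 groups was left out.

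On Tmem106b WT, Grn KO gave 1 call in those 4 lists, where 0.576% of all genes were called. Vim was higher, at 160 ± 15.4 CPM in Grn KO (SD, n = 4) and 22.8 ± 7.87 CPM in Grn WT (SD, n = 3), a log2 fold change of 2.69 (SE 0.47, edgeR adjusted p = 0.0109), without overlap. The 12 transport and coupling genes, the 12 lineage genes and the 16 metabolism genes gave 0 calls, with median log2 fold changes of 0.75, 0.41 and 0.90, against 0.10 over all genes. At an unadjusted edgeR p under 0.05 there were 0, 0 and 4 of them, a level that 12.4% of all genes reached. Vim passed without each Grn KO library in turn, replicate 2 included, but not without Tmem106b WT Grn WT replicate 2 or replicate 3 (edgeR adjusted p of 0.101 at most). Vim is not exclusive to astrocytes, and macrophages express it.

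In Hemi against Entire libraries, where 20.7% of all genes were called, 11.7% higher and 9.03% lower, 1 of 12 transport genes passed, Ttyh1, at 51.0 ± 24.1 CPM in Hemi (SD, n = 8) and 22.3 ± 7.53 CPM in Entire (SD, n = 18), log2 fold change 1.08 (edgeR adjusted p = 0.00688). Of 12 lineage genes 2 passed, Id4 (2.06) and Gpc5 (1.66), both higher, at an edgeR adjusted p of 0.00574 or less. Of 16 metabolism and secreted protein genes 7 passed, all higher, led by Mt3 (1.90), Cpe (1.45), Sparcl1 (0.98) and Clu (1.30), all at an edgeR adjusted p of 0.00639 or less. Of the 19 reactive genes tested, Serpina3n (2.62) and Amigo2 (1.71) were higher and Ggta1 (−0.92) and Fkbp5 (−0.77) lower, at an edgeR adjusted p of 0.0128 or less. Of the 14 calls, 12 passed without Tmem106b KO Grn WT replicate 2, where Bcan and Amigo2 did not, 14 without Tmem106b HET Grn KO replicate 3, and 13 without Tmem106b HET Grn WT replicate 3 or Tmem106b WT Grn KO replicate 2, where Bcan did not. Without Tmem106b WT Grn WT replicate 2 there were 9, with Ndrg2, Acsl6, Bcan, Fkbp5 and Amigo2 not passing. The water channel Aqp4 and the connexin gene Gja1 stood at 0.12 (SE 0.67) and 0.09 (SE 0.32) in the same comparison and did not pass.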

How the data were processed

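Per the labels' protocols, the 26 microglia libraries were made from poly(A) RNA purified on RNeasy Plus Micro columns, with SMART-Seq v4 amplification and Nextera XT tagging. Per the submitters' processing notes, GSNAP and build GRCm38 were used. The counting tool, its strand setting and its handling of reads shared between genes are not given in the sources used here. The deposited files hold raw exonic counts per Ensembl gene, per the file headers, and those counts were used in every test. They also hold RPKM values, which the authors scaled by gene width and library size and which were used only to set levels of different genes side by side.

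Genes were named from GENCODE M21 on GRCm38, in which 52489 of 52636 identifiers matched. Counts were tested with edgeR 4.0.16 in R 4.3.3 by two-sided quasi-likelihood F-tests with TMM scaling, sex and dissection as covariates and 1 estimate of spread over all 26 libraries. The adjustment (Benjamini-Hochberg) was over all 21371 genes kept by edgeR's filter, with a threshold of 0.05. There were 8 pairwise comparisons, 2 interactions and the dissection term. DESeq2 1.42.0, limma 3.58.1 (voom), other scalings, filters and covariates, and leaving out each library in turn were alternatives, and leaving out 2 libraries together was added after the data were seen. The edgeR fit was also run on simulated counts with the same spread for every gene and no mixing of cell types. That run does not show how the fit performs on these libraries. CPM are counts scaled to the TMM-adjusted library total, errors are SD over libraries, and floors of 3 counts cover counting error only.

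The members and gene lists were chosen with earlier results of these data known. In each comparison, tested values are given for members that passed and for the 2 of smallest p, and from the 4 other astrocyte lists for up to 4 genes that passed, by p. Of the 5 genes outside the member list that were most like each member by Spearman's rho, those of highest rho are printed. Other members' values, and the fifth gene named in the reactive list, are given as description. As a check for repeat deposits of 1 library, the 37 library pairs within groups were compared, and the chi-square per gene was at least 33.8, so none was treated as a duplicate. This does not show that libraries are separate animals.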

Additional observations from a re-analysis of the deposited data

Results flagged for a closer look

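In groups of 4 or 5 libraries, a library was singled out where its gap to the nearest other library, divided by the range of the group, passed Dixon's 95% critical value. Among 44 such checks over the 10 members and their sum 10 libraries' values were singled out, 8 of them Hemi. Dixon's value singles out about 1 group in 20 only for independent groups of normally distributed values. These checks share the same libraries, so their count cannot be set against that rate. All 10 are the highest of their group.

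In Tmem106b KO Grn WT, replicate 2 (Hemi) had 706.9 CPM of Aldoc, with 115.1 to 167.4 CPM in the other libraries, and a member sum of 1002 CPM, with 581.4 to 645.2 CPM in the others. In Tmem106b HET Grn WT, replicate 3 (Hemi) had 577.6 CPM of Aldoc and 39.71 CPM of Aldh1l1, with 87.27 to 164.5 CPM and 7.518 to 12.49 CPM in the others. In Tmem106b WT Grn KO, replicate 2 (Hemi) had 56.24 CPM of Gfap, 88.34 CPM of Aqp4, 473.4 CPM of Aldoc and 49.22 CPM of S100b, where the next highest libraries had 14.88, 27.61, 227.2 and 14.88 CPM. In Tmem106b WT Grn HET, replicate 3 (Entire) had 32.36 CPM of Gfap and 28.88 CPM of Aqp4, with at most 7.15 and 15.94 CPM in the others. The first of these libraries has few microglia markers and many neuron markers, and the next 2 have the highest oligodendrocyte sums. The part of those sums in the members' values was not tested within groups.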

How the results depend on the processing

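The count of 2 members in Grn KO against Grn WT on Tmem106b HET was 0 without covariates and 0 with neuron and oligodendrocyte sums as covariates. With only the 2 groups in the fit, which also had no covariates, the count was 0. It was 1 (Slc1a3) with Entire libraries only and 1 (Slc1a3) without the 2 libraries of lowest microglia markers. When single libraries were left out it was 0 to 2. Slc1a3 passed under 12 of 16 alternatives, with log2 fold changes of −1.82 to −0.98. The 2 calls between Hemi and Entire were 0 with the marker sums as covariates, 1 (Aldoc) without the 2 libraries of lowest microglia markers, and 2 to 3 without single libraries, Glul being the third. All other comparisons kept a count of 0 under every alternative run. DESeq2 and limma-voom called the same members as edgeR. Counts over all genes moved more: Grn KO against Grn WT on Tmem106b HET had 3093 calls, against 5264 with DESeq2, 1472 with Entire libraries, 224 without covariates, 9 with the marker sums, 2 with only the 2 groups, 1548 without the 2 libraries of lowest microglia markers and 1095 to 2753 without single libraries. On Tmem106b WT it had 123, against 1170, 336, 58, 74 and 602 under the first 5 of these, 185 with limma-voom and 1 to 376 without single libraries. Hemi against Entire had 4424, against 0 with the marker sums, 1653 without the 2 libraries and 2571 to 5174 without single libraries. DESeq2 called 93 to 548 genes in the other comparisons, where edgeR called 0 or 1. The S100b difference of Grn HET against Grn WT on Tmem106b HET turned from −1.45 to 0.11 without Tmem106b HET Grn WT replicate 3, with −1.93 to 0.11 over single libraries left out. For Tmem106b HET against Tmem106b WT with Grn WT it turned from 1.26 to −0.38, with −0.38 to 1.70. The mean member sum of Tmem106b HET Grn HET was 674 CPM with plain library totals and 720 CPM with TMM scaling. Where no cause is named, the cause was not tested. No paired analysis was possible because the labels give no replicate numbers. Depth limits Aqp4 and Aldh1l1 where they had 0 to 20 counts.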
